A study of Mus musculus with 12 samples.

Results

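The transcripts described here are those of tau (Mapt), the neuronal microtubule-associated protein, and of the kinases, phosphatases and other genes that act on its phosphorylation and turnover. All probes whose gene name in the scanner files was one of these 37 genes were taken. That gave 76 of the 41174 probes on the array. Kept for testing were those that the scanner software flagged as well above background in 4 or more of the 6 readings a region and genotype has. They were 37 member probes of 30 genes, among 12987 probes kept on the array. RNA came from neurons collected by laser capture from the entorhinal cortex, its medial part (MEC) or its lateral part (LEC), of female C57BL/6 mice aged 2 months. Mutants were Naglu-/-, which lack a lysosomal enzyme of heparan sulfate breakdown and serve as a model of Sanfilippo syndrome type B. Their controls were Naglu+/- littermates, so every animal carried a disrupted allele and no wild-type animal was measured. Each region had 3 mutant and control pairs, each hybridised on 2 dual-dye arrays with the dyes swapped, for 12 arrays. A capture held 500 neuronal bodies chosen by position and Nissl stain, not by type, and it is not stated whether the MEC and LEC captures of a replicate number share animals.

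Tau binds along axonal microtubules, and phosphate on its microtubule-binding repeats and flanking stretches loosens that hold. Proline-directed kinases (GSK3, CDK5 with its activators p35 and p39, and the MAP kinases) and others (the MARK, CaMKII, PKA, casein and tau tubulin kinases) phosphorylate it, and PP2A is its main phosphatase in brain. Hyperphosphorylated tau gathers in tangles, for which the entorhinal cortex is an early site in human disease, and tau deposits have been described in the MEC of Naglu-/- mice. The arrays measured transcripts, not tau protein or its phosphorylation.

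The median Cy3 signal was 67 to 77.9 on the 6 MEC arrays and 79.3 to 92.5 on the 6 LEC arrays, so the regions did not overlap in Cy3 brightness. The median Cy5 signal was 44.4 to 50.6 and 49.3 to 54.9, which overlap. The part of brightness in the regional differences was not tested. Of all spots, 48.2% to 67.9% were well above background for Cy3 and 14.8% to 30.4% for Cy5. The number of arrays limits the precision. The brighter Naglu probe cleared background in 12 of 12 Cy3 but 0 of 12 Cy5 readings. In the MEC pairs its log2 ratios of mutant over control were −0.04, 0.09 and 0.05, and in the LEC pairs 0.01, −0.04 and 0.06, so it checks neither genotype nor dye. The arrays were assigned to samples by the authors' value table, since 5 of 6 LEC files lie under another LEC sample. For the replicate 2 arrays of MEC and LEC, that table gives a sign opposite to the dyes in the labels. In the table's direction, the ratios of MEC replicates 2 and 3 had a correlation of −0.58 across the kept probes, and LEC replicates 2 and 3 of −0.45. Replicates 1 and 2 had 0.09 in MEC and −0.07 in LEC. These correlations are across probes, which are not independent replicates. The direction of replicate 2 is not settled by these correlations. The counts and most named members of the mutant comparison are therefore also given with replicate 2 turned, which means with its sign as the labels have it. Lyz2, the gene of smallest adjusted p in the mutant comparison, had ratios of 1.67, 1.80 and 1.90 in MEC and 1.17, 2.50 and 1.64 in LEC in the table's direction, so with the labelled dyes replicate 2 lies below 0. The mean ratio of microglial markers, Lyz2 among them, was 0.303, 0.285 and 0.276 in MEC and 0.206, 0.505 and 0.242 in LEC in that direction. With the labelled dyes it too lies below 0 in replicate 2. No other marker list had 1 sign in all 6 pairs in the table's direction. Of excitatory neuron markers 12 of 15 were kept, and Slc17a7 and Tbr1 were not. Of astrocyte markers 9 of 12 were kept, not Gfap or Aqp4, and of microglial markers 12 of 16. All probe coordinates below are of build mm8.

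The regional comparison asks which members differed in level between MEC and LEC neurons, whatever the genotype. Level here is the log2 intensity averaged over both dyes, quantile-normalised between arrays, so a difference is relative to the other probes of the array. Levels were compared within a probe and never between probes. Of the 37 member probes 19 passed an adjusted p of 0.05 (limma, Benjamini-Hochberg over the 12987 probes). Of all kept probes 24.3% did. By direction, 6 member probes were higher in MEC, where the background share was 11.2%, and 13 were lower, where it was 13.2%. Those higher were the JNK3 kinase gene Mapk10, the tau tubulin kinase gene Ttbk2 and the phosphatase genes Ppp2r2c, Ppp2r2b, Ppp3ca and Ppp3cb. Those lower belonged to Mapt, Camk2b, Cdk5r1, Mark1, Mark3, Mapk3, Dyrk1a, Csnk1d, Ttbk1, Ppp5c and Stub1. By class, 2 of 21 kept probes of kinases and their activators were higher and 9 lower, and 0 and 15 under median centring. Of 11 phosphatase probes 4 were higher and 1 lower, and 0 and 3 under median centring, described next. The levels of MEC and LEC pairs did not overlap for 25 of 37 member probes, against 42.9% of all kept probes. The difference was above 0 for 15 of 37 member probes and for 45.5% of all.

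The direction depends on the scaling for 4 of the 6 probes higher in MEC, while those of Mapk10 and Ttbk2 stayed above 0. With each array centred on its median in place of quantile normalisation, 22 member probes passed, with 0 higher and 22 lower. Of all kept probes 1.46% were then higher and 50.6% lower. The median difference of all kept probes moved from −0.02 to −0.17, a shift of −0.16. Relative to each scaling's median, 17 of the 19 called probes lay on the same side under both, and those of Ppp3ca and Ppp3cb changed side. Those of Ppp2r2b and Ppp2r2c kept their side only narrowly. They lay 0.336 and 0.415 above the median after quantile normalisation but 0.018 and 0.034 above it under median centring. The same count was not made for all called probes. All MEC arrays were scanned on 1 day and all LEC arrays on another, so scan day and region cannot be told apart. Of the 19 calls, 10 held with any of the 6 pairs left out. The count fell to 11 without MEC replicate 1 or without LEC replicate 2, where 15.1% and 15.5% of all kept probes passed, and to 3 without replicate 2 of both regions, where 6.87% did. With the control or the mutant channels alone, 1 member probe passed, Ppp2r2c and Mapk10 in turn, where 4.74% and 3.5% of all kept probes passed.

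**Figure D1:**
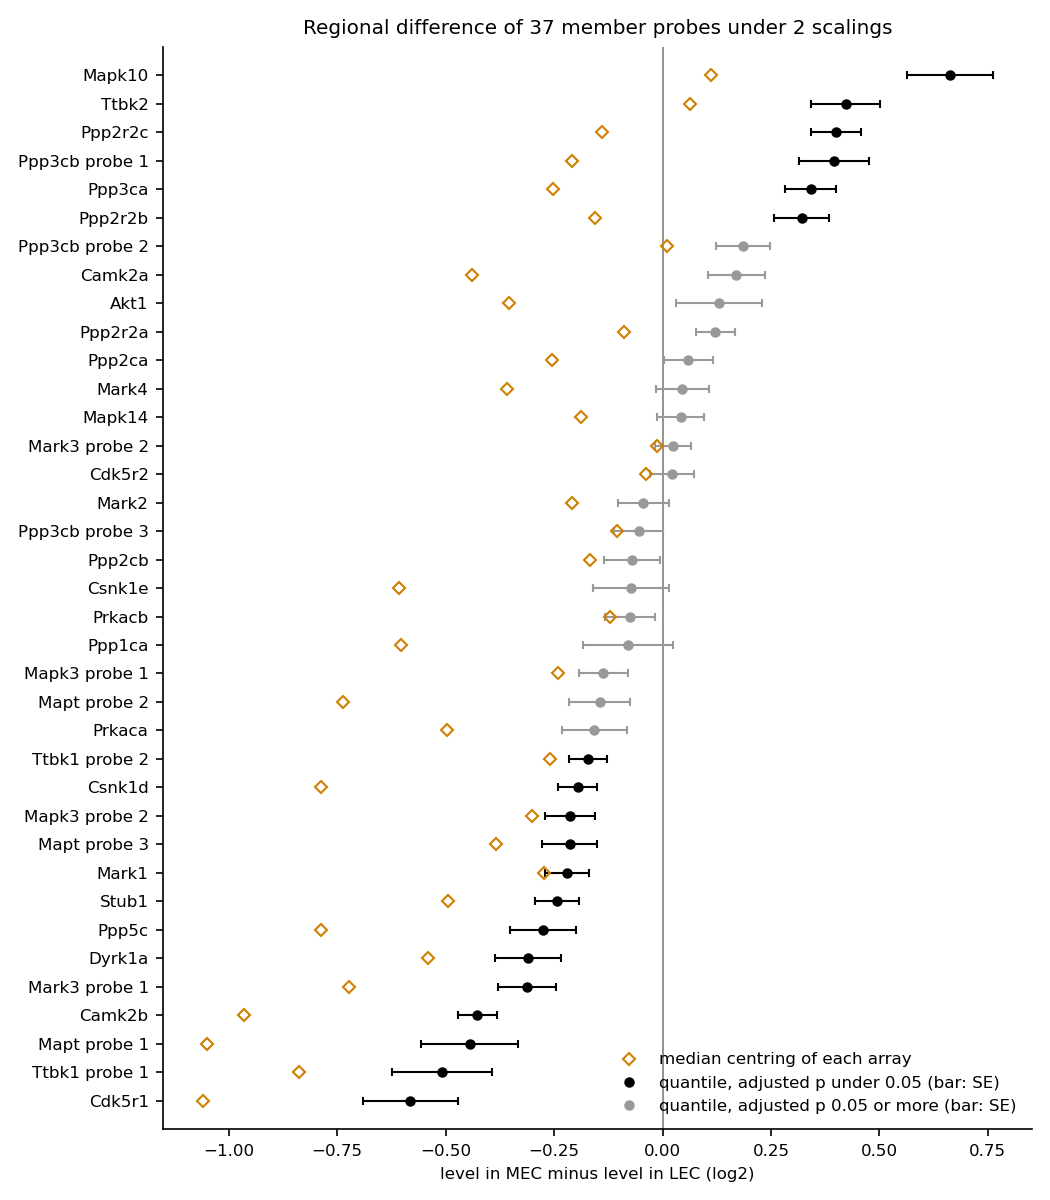
Level in MEC minus level in LEC (log2) for the 37 kept member probes, with limma's SE as bars over 3 pairs per region; black points passed an adjusted p of 0.05 after quantile normalisation and open diamonds are the same differences with each array centred on its median. Black points on the right are the 6 probes higher in MEC, of which Mapk10 and Ttbk2 stay above 0 under both scalings while those of Ppp2r2c, Ppp2r2b, Ppp3ca and Ppp3cb fall below 0 under median centring.

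The stretches just before the start sites are shown for Mapk10, Camk2b and Ppp2r2c, the members of smallest p between the regions that RefSeq's promoter table (build GRCm38.p6) lists. Promoters were found for 25 of the 37 members. Each is 250 bases, 5′ to 3′ on the gene's own strand, ending at the base before the start site. Capitals mark matches, on either strand, to the GC box GGGCGG bound by Sp factors, the core TGACG of the cAMP response element, the E-box CACGTG or the TATA box TATAAA.
Mapk10, chr5:103211335-103211584, minus strand: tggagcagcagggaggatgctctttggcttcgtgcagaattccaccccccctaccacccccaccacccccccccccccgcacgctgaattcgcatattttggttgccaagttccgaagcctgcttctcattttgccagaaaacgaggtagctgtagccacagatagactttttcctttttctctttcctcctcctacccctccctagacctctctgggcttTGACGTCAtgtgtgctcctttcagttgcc
Camk2b, chr11:6065749-6065998, minus strand: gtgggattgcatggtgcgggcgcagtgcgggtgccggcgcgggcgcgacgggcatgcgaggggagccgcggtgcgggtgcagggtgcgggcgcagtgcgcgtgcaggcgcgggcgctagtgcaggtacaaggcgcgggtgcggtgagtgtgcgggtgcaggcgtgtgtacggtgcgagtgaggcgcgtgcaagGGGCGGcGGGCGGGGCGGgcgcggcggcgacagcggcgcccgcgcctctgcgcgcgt
Ppp2r2c, chr5:36868260-36868509, plus strand: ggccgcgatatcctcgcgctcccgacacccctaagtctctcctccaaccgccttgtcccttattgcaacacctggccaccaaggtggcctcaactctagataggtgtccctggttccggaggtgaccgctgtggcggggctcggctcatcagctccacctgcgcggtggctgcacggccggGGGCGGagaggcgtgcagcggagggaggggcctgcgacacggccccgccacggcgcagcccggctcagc
For Mapk10, 2 windows are listed, of which the first is shown and the other was not searched. Mapk10's first window, which lies inside the gene's annotated span, held 2 overlapping matches to TGACG on opposite strands and no GC box. Camk2b's held 3 GC boxes close together before the start, 2 of them overlapping, and Ppp2r2c's held 1. Of the 25 members' windows, GGGCGG was in 84% and TGACG in 48%, against 42.7% and 20.3% of the 17492 windows of protein-coding genes. CACGTG was in 8% against 6.64%, and TATAAA in 4% against 12.4%. A match is a description of letters, not a site of binding.

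Tau itself was lower in MEC at 2 of its 3 probes. The brightest (A_52_P509297, chr11:104146121-104146180) was at 9.47, 9.88 and 9.65 in the MEC pairs and 9.95, 10.12 and 10.27 in the LEC pairs. Every MEC pair lay below every LEC pair, a difference of −0.44 (SE 0.112, n = 3 pairs per region; limma adjusted p = 0.0235), or 1.36-fold. In LEC replicate 1 this probe rests on 1 array, since the scanner software marked the other spot as an outlier. The probe A_51_P476689, whose ends on the genome lie 3161 bases apart and so cross a splice junction, was at 6.17, 6.38 and 6.30 in MEC and 6.45, 6.49 and 6.56 in LEC. Its groups did not overlap either, with a difference of −0.21 (SE 0.0633, adjusted p = 0.0421). The third, A_51_P140576, was at 9.48, 9.75 and 9.68 against 9.75, 9.79 and 9.80, with a difference of −0.15 (SE 0.0706, adjusted p = 0.175). The first call ended without MEC replicate 1 or 3 or LEC replicate 2 or 3 (adjusted p = 0.0805, 0.0685, 0.0602 and 0.0508), and that of A_51_P476689 without any pair but MEC replicate 2, with adjusted p from 0.0569 to 0.111. Under median centring all 3 were lower in MEC, the brightest by −1.05. That scaling lowered the value of every kept member probe, with Camk2a going from 0.17 to −0.44 and Ppp3ca from 0.34 to −0.25. The larger size is thus not particular to Mapt.

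Of CDK5 and its activators, Cdk5r1, which encodes p35, was lower in MEC. Its probe (chr11:80296519-80296578) was at 7.45, 7.61 and 7.47 in MEC and 7.83, 8.15 and 8.29 in LEC. LEC pairs spread more than MEC pairs but stayed above them all, with a difference of −0.58 (SE 0.110, adjusted p = 0.00803). Cdk5r2, which encodes the other activator p39, differed by 0.02 (SE 0.0502, adjusted p = 0.783), and its pairs overlapped. Cdk5 itself was not kept. It cleared background in 11 of 12 Cy3 readings but 0 of 12 for Cy5, and without a filter on dim probes it differed by −0.01 (adjusted p = 0.923). Nor was any probe of the GSK3 genes kept, both detected in Cy3 alone in 11 of 12 readings. Without the filter Gsk3b differed by 0.12 (adjusted p = 0.128) and Gsk3a by 0.00415 (adjusted p = 0.956) at those probes. The offset added before the logarithm compresses differences of such dim probes, so these small values are not shown to be small in RNA.

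Among MAP kinases, Mapk10, which encodes the neuronal kinase JNK3, had the largest difference of any member. Its kept probe (chr5:103152838-103152897) was at 9.07, 8.99 and 8.74 in MEC and 8.26, 8.13 and 8.42 in LEC. In MEC the lowest pair stood above the highest LEC pair, with a difference of 0.66 (SE 0.0990, adjusted p = 0.00341), or 1.58-fold. It was above 0 in all 20 alternative settings, down to 0.11 (adjusted p = 0.537) under median centring. The other JNK genes, Mapk8 and Mapk9, had no kept probe. Mapk3, which encodes ERK1, differed by −0.21 (SE 0.0568, adjusted p = 0.0287) at 1 probe and by −0.14 (SE 0.0570, adjusted p = 0.121) at the other. The first call ended without any 1 pair except MEC replicate 2, with adjusted p from 0.0515 to 0.0843. The p38 gene Mapk14 differed by 0.04 (SE 0.0545, adjusted p = 0.619).

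The MARK kinases detach tau from microtubules by phosphorylating its repeats. Mark3 (A_51_P176932, chr12:112103499-112103558) was at 7.11, 6.99 and 7.16 in MEC and 7.35, 7.33 and 7.51 in LEC. Both groups were apart, with a difference of −0.31 (SE 0.0670, adjusted p = 0.0126). Its second and dimmer probe, A_52_P344704, differed by 0.02 (SE 0.0415, adjusted p = 0.71). That probe cleared background in 11 of 12 Cy3 but 1 of 12 Cy5 readings, so its small value is not shown to be small in RNA. Mark1 differed by −0.22 (SE 0.0517, adjusted p = 0.0177), a call that ended without MEC replicate 1 (adjusted p = 0.0549) or LEC replicate 2 (adjusted p = 0.0626). Mark2 and Mark4 differed by −0.04 and 0.05 and did not pass, though under median centring Mark4 was at −0.36 (adjusted p = 0.00199).

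Of the calcium and cAMP kinases, Camk2b had the smallest p of any member. This β chain of CaMKII, the calcium and calmodulin-dependent kinase of synapses, was at 8.19, 8.26 and 8.22 in MEC and 8.63, 8.68 and 8.64 in LEC (probe at chr11:5869835-5869894). Its pairs lay close together within each region, and the difference was −0.43 (SE 0.0449, adjusted p = 0.000969), or 1.34-fold. It was below 0 in all 20 alternative settings. The α chain, Camk2a, differed by 0.17 (SE 0.0649, adjusted p = 0.0944), though its MEC and LEC pairs did not overlap, and under median centring it was at −0.44 (adjusted p = 0.0148). The catalytic chains of PKA did not pass, Prkaca at −0.16 (SE 0.0745) and Prkacb at −0.07 (SE 0.0573).

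The tau tubulin kinases went opposite ways after quantile normalisation. Ttbk2 (chr2:120424480-120424539) was at 7.37, 7.25 and 7.07 in MEC and 6.74, 6.89 and 6.79 in LEC. It was higher in every MEC pair, by 0.42 (SE 0.0789, adjusted p = 0.00749), and by 0.06 (adjusted p = 0.57) under median centring. Ttbk1 was lower at both probes, by −0.51 (SE 0.116, adjusted p = 0.0156) and −0.17 (SE 0.0433, adjusted p = 0.0233). The call at the brighter ended without MEC replicate 1 or 2 (adjusted p = 0.0669 and 0.0535), and at the dimmer without any pair but LEC replicate 1 (0.0531 to 0.0902). The gene of the dual-specificity kinase Dyrk1a differed by −0.31 (SE 0.0770, adjusted p = 0.0221), which was lost without MEC replicate 1 or 2 or LEC replicate 1 or 2 (0.0618 to 0.0812). The casein kinase gene Csnk1d differed by −0.20 (SE 0.0454, adjusted p = 0.017), lost without MEC replicate 2 or LEC replicate 1 or 2 (0.0522 to 0.0618), and its relative Csnk1e by −0.07 (SE 0.0878, adjusted p = 0.585). Fyn, a tyrosine kinase that binds tau, had no kept probe.

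PP2A is built of a catalytic, a scaffold and a B subunit, and the B subunit directs it to tau and other substrates. Of its B subunits, Ppp2r2c (chr5:37243010-37243069) was at 8.63, 8.54 and 8.71 in MEC and 8.19, 8.20 and 8.29 in LEC. Both groups were apart, with a difference of 0.40 (SE 0.0577, adjusted p = 0.00293), or 1.32-fold, but under median centring it was −0.14 (adjusted p = 0.0766). Ppp2r2b was at 7.96, 7.86 and 7.79 in MEC and 7.48, 7.52 and 7.64 in LEC. Its difference was 0.32 (SE 0.0640, adjusted p = 0.00967), and −0.16 (adjusted p = 0.169) under median centring. Ppp2r2a, the third B subunit of this family, did not pass at 0.12 (SE 0.0454, adjusted p = 0.0893), nor did the catalytic genes Ppp2ca (0.06) and Ppp2cb (−0.07). The scaffold gene Ppp2r1a was not kept.

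Calcineurin, the calcium-dependent phosphatase, gave 2 of the 6 higher probes. Ppp3ca (chr3:136872888-136872948) was at 9.21, 9.23 and 9.23 in MEC and 8.76, 8.92 and 8.96 in LEC. MEC pairs were nearly equal and above all LEC pairs, with a difference of 0.34 (SE 0.0586, adjusted p = 0.0055), which became −0.25 (adjusted p = 0.0515) under median centring. Ppp3cb was at 9.44, 9.62 and 9.58 against 9.24, 8.99 and 9.23 at its brightest probe, a difference of 0.39 (SE 0.0810, adjusted p = 0.0107), which became −0.21 (adjusted p = 0.187) under median centring. Its 2 other probes differed by 0.18 (adjusted p = 0.0644) and −0.06 (adjusted p = 0.511), so its probes disagree in sign. Ppp5c, the gene of a phosphatase that acts with HSP90, was lower in MEC by −0.28 (SE 0.0755, adjusted p = 0.0317), which was lost without MEC replicate 1 or 2 or LEC replicate 2 or 3 (0.0693 to 0.109). The PP1 gene Ppp1ca differed by −0.08 (SE 0.103, adjusted p = 0.616).

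Stub1 encodes CHIP, the ubiquitin ligase that tags tau held by chaperones. It was at 6.42, 6.52 and 6.50 in MEC and 6.69, 6.71 and 6.77 in LEC (chr17:25558481-25558540). No pairs overlapped, and the difference was −0.24 (SE 0.0499, adjusted p = 0.0106). Akt1, whose product inhibits GSK3, did not pass at 0.13 (SE 0.0998, adjusted p = 0.384), and was at −0.35 under median centring.

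**Figure D2:**
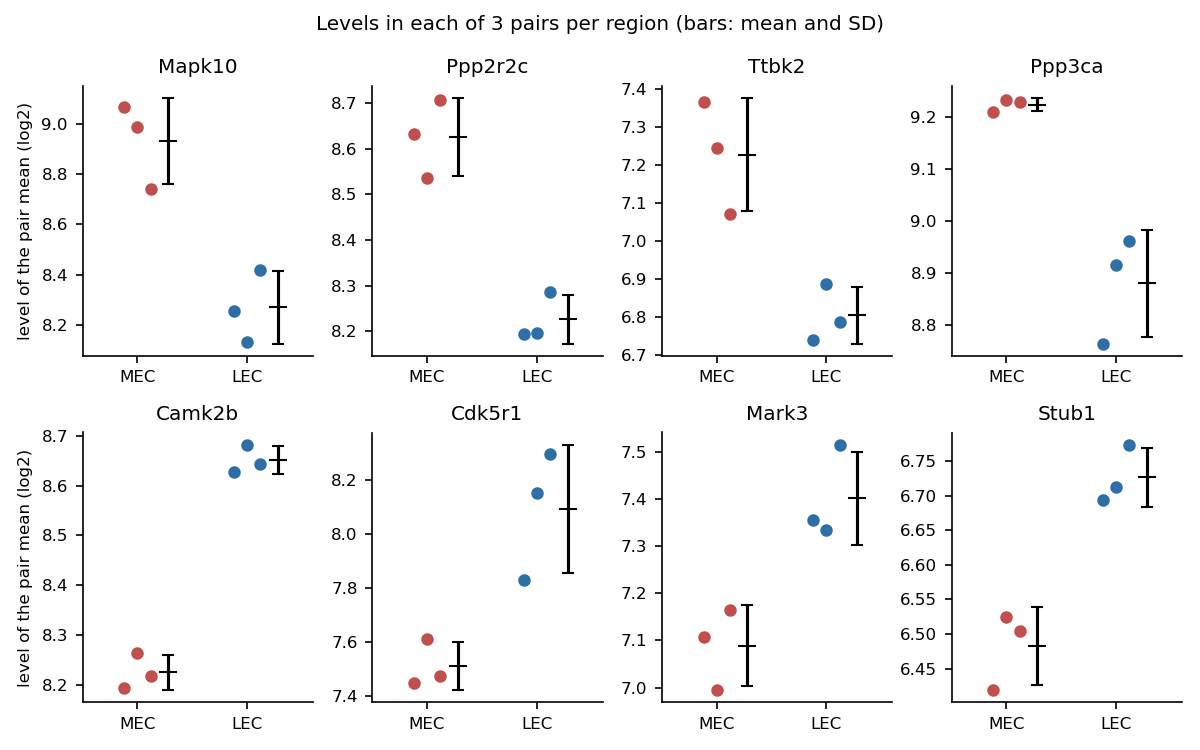
Level (log2 intensity of both dyes, quantile-normalised) in each of 3 pairs per region, replicates 1 to 3 from left to right, for the 4 members of smallest p on each side of 0; bars are the mean and SD, and each panel has its own axis, which does not start at 0. MEC and LEC pairs are apart in all 8 panels, the upper row higher in MEC and the lower row lower, and under median centring Ppp2r2c and Ppp3ca of the upper row turn below 0.

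Other genes around tau differed in both directions. Of 9557 measured genes, 12.3% were higher in MEC and 13.8% lower. Of 30 measured further tau kinases and regulators 8 were higher, among them the protein kinase C gene Prkcb by 0.73 (adjusted p = 0.00224), and 2 lower, among them Csnk2a2 by −0.38 (adjusted p = 0.00341). Of 24 other phosphatase subunits and regulators 4 were higher and 3 lower, with the PP1 catalytic gene Ppp1cc at 0.52 (adjusted p = 0.000552). The calcineurin B genes went opposite ways, Ppp3r2 at −0.39 (adjusted p = 0.00254) and Ppp3r1 at 0.53 (adjusted p = 0.00447). Of 18 microtubule-associated proteins and stathmins other than tau, 4 were higher and 3 lower, and Stmn2, a microtubule destabiliser, was at 0.72 (adjusted p = 0.00539). Of 18 tubulin and motor genes 4 were higher and 5 lower, and the β-tubulins Tubb2a and Tubb2b were at −0.56 and −0.74 (adjusted p = 0.00258 and 0.00283). For 23 genes of tau folding and clearance the counts were 2 and 3, with the co-chaperone Dnaja1 at 0.48 (adjusted p = 0.000643) and the autophagy receptor Sqstm1 at −0.62 (adjusted p = 0.000872). For 14 disease genes they were 4 and 3. Under median centring the genes higher in MEC numbered 0, 1, 0, 0, 0 and 1 in these 6 lists and those lower 17, 16, 9, 11, 16 and 8, and of the named higher genes only Ppp1cc still passed, at 0.14 (adjusted p = 0.0468).

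Markers of cell types also moved with region. Of 12 excitatory markers 5 were higher in MEC and 1 lower, and of 10 inhibitory markers 3 and 1. Under median centring these were 3 and 3, and 1 and 5. Of 9 oligodendrocyte markers 4 were higher and 2 lower, and the log2 of their mean level was 7.21 to 7.46 in MEC and 6.90 to 7.08 in LEC. Excitatory markers overlapped, at 8.57 to 8.76 in MEC and 8.63 to 8.89 in LEC, and 1 of 12 microglial markers, 1 of 9 astrocyte markers and 0 of 8 vessel markers passed, and 4, 2 and 2 under median centring. Their part in the differences above was not tested. In captured tissue, fewer cells of a type and less RNA per cell cannot be told apart.

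The mutant comparison asks whether these genes differed between Naglu-/- and Naglu+/- neurons in MEC, where tau pathology is described, or in LEC. No member probe passed in MEC, in LEC, over both regions or in the difference between the regions (limma, adjusted p, smallest member value 1). The background was 0% of kept probes in each. At an unadjusted p of 0.05, 0 of 37 member probes passed in each of the 4, against 1.03%, 1.52%, 2.12% and 0.547% of all kept probes. With replicate 2 turned as labelled, 0 passed the adjusted test too, but 9, 5, 6 and 9 member probes passed the unadjusted p, where 11.1%, 9.54%, 11.7% and 8.84% of all kept probes did. The smallest adjusted p among members was then 0.206, for Mapt in LEC, at a probe whose LEC replicate 1 ratio rests on 1 array.

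Mapt showed no difference beyond its spread in the table's direction. At A_52_P509297 the log2 ratio of mutant over control was 0.21, −0.08 and 0.19 in the MEC pairs and 0.40, −0.48 and 0.72 in the LEC pairs. The 0.40 of LEC replicate 1 rests on 1 array, with the mutant in Cy3, so no dye swap balances it. Replicate 2 is the low pair in both regions, and signs are mixed. The mean was 0.11 (SE 0.206) in MEC, 0.21 (SE 0.206) in LEC and 0.16 over both, with a 95% interval of −0.18 to 0.50. At A_51_P140576 the MEC pairs had 0.22, −0.09 and 0.21 and the LEC pairs 0.09, 0.14 and −0.14. The probe A_51_P476689 had 0.03, −0.30 and 0.24 in MEC and 0.13, 0.05 and 0.08 in LEC, above 0 in every LEC pair. With replicate 2 turned, the mean of A_52_P509297 was 0.16 (SE 0.0715, adjusted p = 0.45) in MEC, 0.54 (SE 0.0715, adjusted p = 0.206) in LEC and 0.35 (SE 0.0506, adjusted p = 0.273) over both. The other 2 probes were then at 0.18 and 0.19 in MEC and at −0.06 and 0.05 in LEC, and neither passed.

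**Figure D3:**
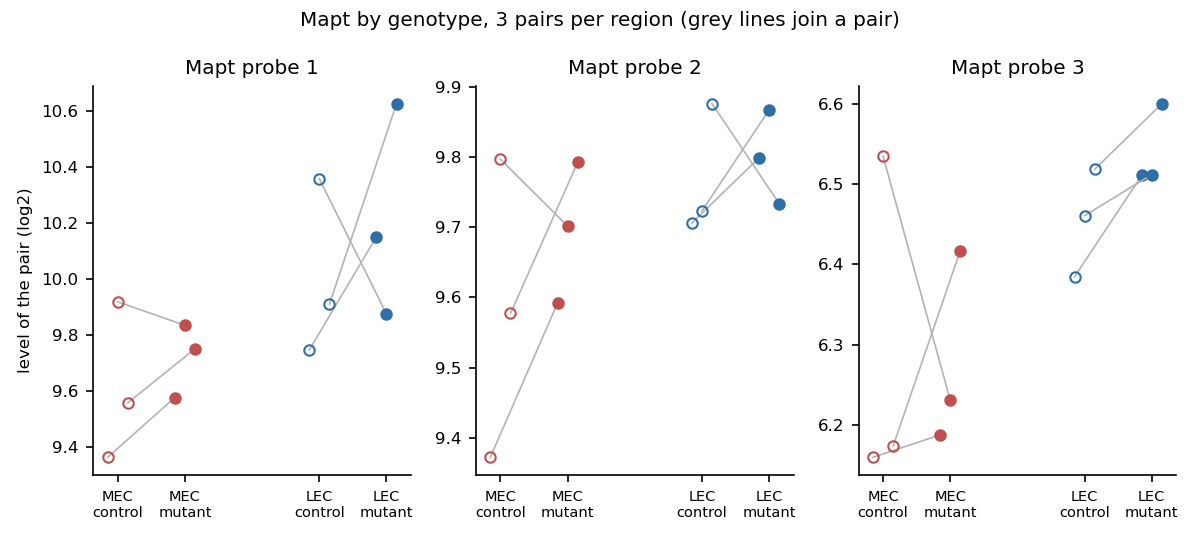
Level (log2) of Mapt in control and mutant neurons of each pair, in MEC and LEC, at probe 1 (A_52_P509297), probe 2 (A_51_P140576) and probe 3 (A_51_P476689); grey lines join the 2 samples of a pair, in the value table's direction, and axes do not start at 0. In MEC 2 lines slope up and 1 down at every probe, and in LEC the lines run both ways at probes 1 and 2.

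Among kinases and their activators, the casein kinase gene Csnk1d had ratios of 0.28, 0.07 and −0.03 in MEC and 0.32, 0.35 and −0.05 in LEC. Replicate 3 of each region was just under 0 and the rest above, with a mean over both of 0.16 (SE 0.0705, limma adjusted p = 1), and 0.02 with replicate 2 turned. Csnk1e was above 0 in every MEC pair at 0.16, 0.11 and 0.28, and at −0.14, −0.51 and 0.09 in LEC. The test of that difference gave 0.37 (SE 0.157, limma adjusted p = 1), and −0.04 (adjusted p = 0.949) with replicate 2 turned. Camk2a had 0.14, −0.68 and −0.29 in MEC and −0.57, 0.08 and −0.03 in LEC, a wide spread around a mean over both of −0.23 (SE 0.123, adjusted p = 1). Turning replicate 2 moved that mean to −0.03, and the mean in MEC went from −0.28 to 0.18. The dimmer Mark3 probe, A_52_P344704, was the single member probe above 0 in all 6 pairs, from 0.01 to 0.11, where 1.83% of all kept probes had 1 sign in all 6. Turning replicate 2 ended that, and 3 other member probes, of Mapt, Dyrk1a and Ttbk1, had 1 sign in all 6, against 7.48%. The PKA gene Prkaca was below 0 in every MEC pair, at −0.05, −0.17 and −0.03, and at −0.04, 0.01 and −0.11 in LEC. Prkacb was also below 0 in every MEC pair, at −0.06, −0.26 and −0.01, and at −0.03, 0.18 and −0.02 in LEC. Neither held with replicate 2 turned, when the MEC means were 0.03 for Prkaca and 0.07 for Prkacb. Mapk10, the highest member in MEC against LEC, had −0.11, −0.26 and 0.52 in MEC and −0.01, −0.08 and −0.43 in LEC. Its mean over both was 0.05 with replicate 2 turned. Cdk5r1 spread most, from −0.79 in LEC replicate 2 to 1.01 in LEC replicate 3, and its mean over both went from 0.06 to 0.42 with replicate 2 turned.

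The means over both regions of the 5 PP2A probes ran from −0.09 (Ppp2r2c) to −0.00379 (Ppp2ca), and those of the 6 calcineurin, PP1 and PP5 probes from −0.07 to 0.11 (Ppp3ca). Turned, the PP2A probes ran from −0.05 (Ppp2r2a) to 0.18 (Ppp2r2b) and the others from −0.03 (Ppp3cb) to 0.11 (Ppp1ca). Ppp2r2a, the gene of a B subunit, had −0.01, 0.02 and −0.07 in MEC and −0.11, −0.01 and −0.13 in LEC. It was below 0 in 5 of 6 pairs, with a mean of −0.05 (SE 0.0417, adjusted p = 1), and the same −0.05 with replicate 2 turned. Ppp3ca ran from −0.43 in MEC replicate 2 to 0.47 in LEC replicate 2, and with replicate 2 turned it was at 0.34 in MEC (SE 0.113, adjusted p = 0.43). Stub1 was above 0 in every LEC pair, at 0.05, 0.04 and 0.18, and at −0.01, −0.09 and 0.16 in MEC, with a mean over both of 0.05 (SE 0.0503, adjusted p = 1), and 0.07 with replicate 2 turned.

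The precision of these means bounds what could have been seen. The SD of the ratio over the 6 pairs ran from 0.0426 to 0.629 across the 37 member probes, with a median of 0.184. Over both regions the 95% interval lay within 0.5 of 0 on the log2 scale for 34 of 37 member probes, in MEC for 32 and in LEC for 29. Turned, these numbers were 36, 29 and 32. In the table's direction 15 of 37 member probes were above 0 in MEC and 24 in LEC, where 47.3% and 52.8% of all kept probes were. Over both regions 18 were above 0, against 50.9%, and in the difference of the mutant effect between MEC and LEC 8 were, against 45%. With replicate 2 turned, 31 were above 0 in MEC and 17 in LEC, against 62.8% and 51.4%, and 27 over both regions and 26 in the difference, against 61.8% and 57.9%. Which region had more member probes above 0 thus depends on the direction of replicate 2. The pairs differed among themselves. In MEC replicate 2 only 29.7% of member probes were above 0, in MEC replicate 3 67.6%, and of all kept probes 37.2% and 61.7%. Turned, MEC replicate 2 had 70.3% of member probes above 0 and 62.8% of all. All 3 pairs had 1 sign for 5 of 37 member probes in MEC and 9 in LEC, against 14.2% and 17.4% of kept probes. Turned, the counts were 14 and 14, against 36.6% and 30.1%. The pair LEC replicate 2 had a mean ratio of 0.62 for astrocyte, 0.88 for blood, choroid plexus and meningeal and 0.44 for inhibitory neuron markers. For microglial markers it was 0.505, against 0.206 to 0.303 in the other pairs. Each of these 4 was further from 0 than in any other pair, but vessel markers were at −0.02. Over both regions 5 of 12 microglial markers had an unadjusted p under 0.05 (limma), against 2.36% of all measured genes, and 0 passed the adjusted test. Without LEC replicate 2, 0 member probes passed in any mutant comparison, and of all kept probes at most 0.0077% did.

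**Figure D4:**
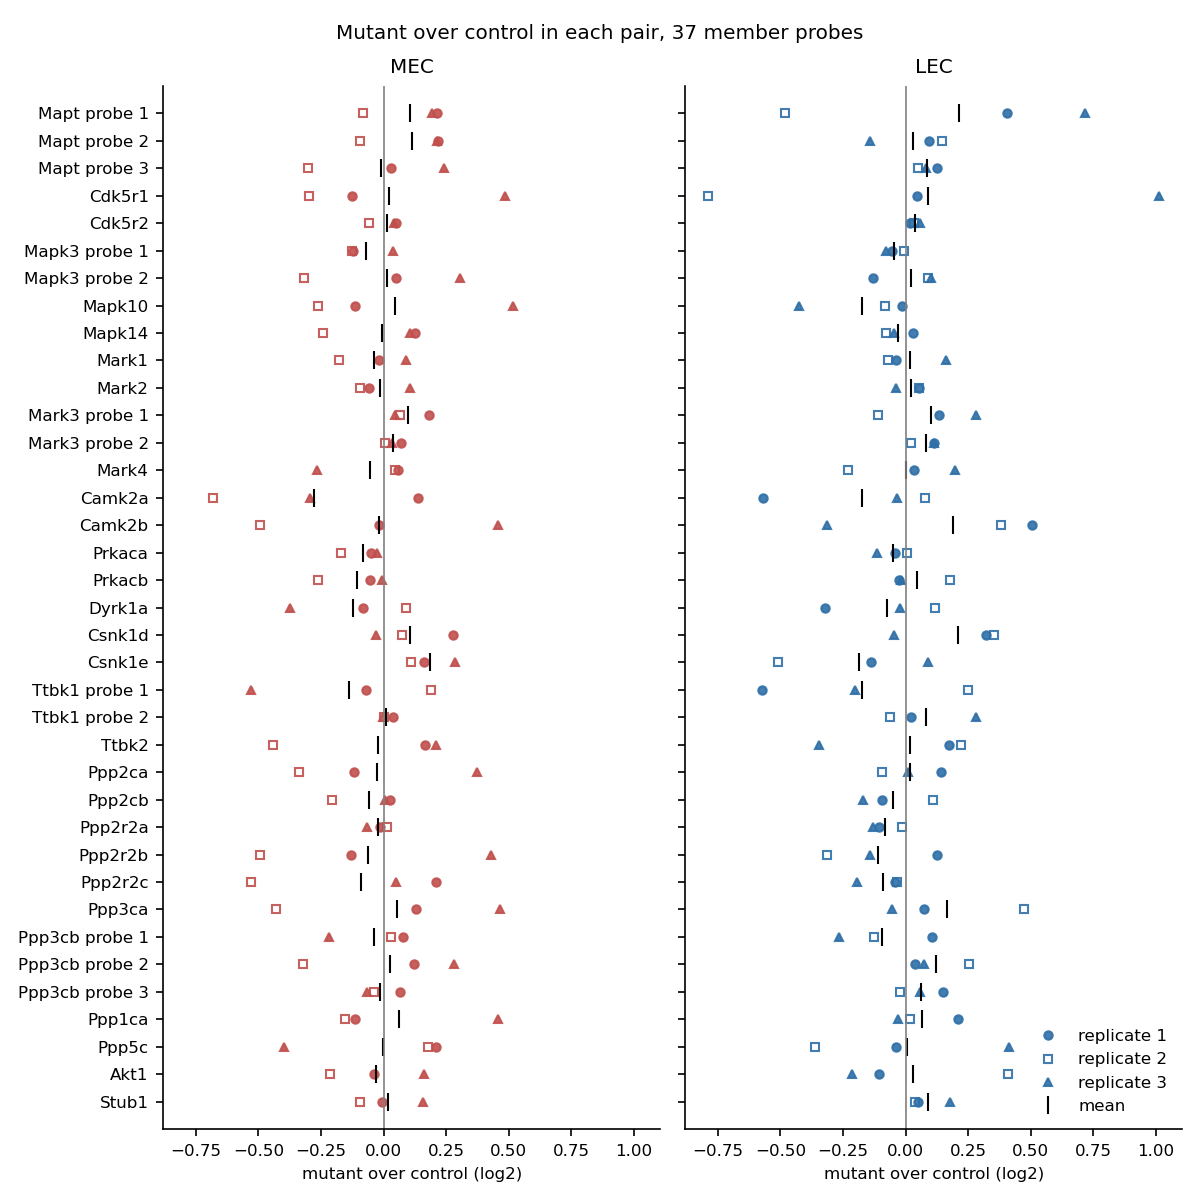
Log2 ratio of mutant over control in each pair for the 37 kept member probes, MEC on the left and LEC on the right; circles, open squares and triangles are replicates 1, 2 and 3 in the value table's direction and black ticks are means. Points lie on both sides of 0 for most probes, and open squares lie left of 0 for most probes in MEC.

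No gene of the lists around tau passed by genotype. Of the measured genes in the 6 lists of kinases, phosphatases, microtubule, tubulin, folding and disease genes, 0 passed in MEC, LEC, both regions or their difference, against 0% of all measured genes (limma, Benjamini-Hochberg). At an unadjusted p of 0.05, 1, 3, 4 and 0 of their 127 genes passed in the 4 comparisons, against 1.23%, 1.67%, 2.36% and 0.544% of all. With replicate 2 turned 0 passed the adjusted test and 23, 14, 20 and 20 the unadjusted p. Of all kept probes 11.1%, 9.54%, 11.7% and 8.84% then passed the unadjusted p. The smallest adjusted p in the table's direction was 0.0978, for Lyz2 in the disease list over both regions. That is also the smallest of all kept probes, and the lists were chosen with earlier results of these data known. No other gene of the disease list had an unadjusted p under 0.05 (limma) over both regions. The median over both regions was between −0.02 and 0.03 in each list, against 0.00156 for all measured genes, and between 0.04 and 0.06 with replicate 2 turned.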

How the data were processed

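Neurons captured by laser from the MEC and LEC of Naglu-/- and Naglu+/- mice were hybridised in 3 pairs per region on 12 Agilent dual-dye arrays with dye swaps. The deposited scanner files hold mean signals and local backgrounds as raw intensity, and processed intensity values that the authors' scanner software subtracted for background and normalised between dyes. They also hold the software's log10 ratio of Cy5 over Cy3, a deposited column not used as the main value, and deposited flags of 0 or 1, which carry no unit. Agilent Feature Extraction is version 9.5.1.1 per the file headers and 8.5.1.1 per the submitters' processing notes. The authors' value table holds log2 ratios, whose centring and direction are not stated (column medians −0.4 to 0.4). Each of its columns matched a single array over 9166 bright spots (correlation 0.995 to 0.999 in size, any other array at most 0.657).

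By that match 5 LEC arrays were moved to another LEC sample, and 4 arrays, those of replicate 2, were turned against the labelled dyes. This choice was made with outcomes known. Local background was corrected with limma 3.58.1 (normexp, offset 50), followed by loess within arrays, and spots of a probe and arrays of a pair were averaged, without outlier spots. R was version 4.3.3. In the fit the 6 pair means share a single estimate of spread, with a mean per region, and p-values are two-sided and measure the spread between these samples. Replicate numbers were not used to pair the regions in the main fit. Ratios taken as deviations from their region's mean had correlations of −0.178, −0.00588 and −0.356 between same-numbered MEC and LEC pairs. These values do not show whether such pairs share animals. The code was tested on simulated data. Alternatives changed the dim-probe filter, background, scaling, dye, genotype channel, direction of replicate 2, array assignment and pairs used. A filter on Cy3 readings alone was added after seeing the data. Names came from the scanner files. RefSeq names (GRCm38.p6) matched 59 member probes by accession and 17 by symbol, with 0 conflicts. A further kept probe, named C230008H04Rik in the scanner files, has the RefSeq name Mapk10. It was not taken as a member, and its values are not given here. Promoter and motif counts used 1 window per gene.

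The members and lists were chosen with earlier results of these data known. Named in full are Mapt and, per comparison, the 4 member genes of smallest p on each side of 0 by the brightest kept probe, with at most 2 genes per other list, Naglu and Lyz2. Ppp3r1 was added to these since it differed in sign from Ppp3r2. Other members are named so that all are accounted for. The position of probes within exons was not analysed here.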

Additional observations from a re-analysis of the deposited data

Results flagged for a closer look

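Of the 37 kept member probes, 2 had a pair whose ratio of mutant over control lay far from the other 5, relative to the range of all 6. Chance gives such a pair in about 1 of 20 probes. At Cdk5r2 the ratio in MEC replicate 2 was −0.058, below the other pairs at 0.017 to 0.058. With the sign of replicate 2 turned as labelled, this pair lies within the others' range. At the dimmer Ttbk1 probe (A_51_P336293) the ratio in LEC replicate 3 was 0.28, above the other pairs at −0.06 to 0.04, and it stood apart with replicate 2 turned too. No difference of the mutant effect between MEC and LEC passed for a member.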

How the results depend on the processing

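In the 4 mutant comparisons the count of member probes with an adjusted p under 0.05 (limma) stayed at 0 under all alternatives run. Among these were the replicate block, the value table (36 member probes), no filter (76) and the Cy3 filter (55). Without any 1 replicate the range was 0 to 0. Of all probes tested 0% passed too, but for 0.0077% in MEC and over both regions without LEC replicate 2. A count of 0 is thus no trait of the members. For the regional comparison the count was 19 (24.3%), where the shares in brackets are of all probes tested in the same setting. It was 11 with Cy5 alone (19.5%), 1 with the control channels (4.74%), 1 with the mutant channels (3.5%) and 3 without replicate 2 of both regions (6.87%). Without any 1 replicate it was 11 to 16 (15.1% to 22.3%). The cause of each drop was not tested. The count was 18 with the replicate block (21.3%), which changed no other count by over 1.5 times. With processed signals it was 18 (25.2%), with Cy3 alone 15 (18%) and with files as labelled 21 (31.2%). With no filter it was 17 of 76 (8.06%) and with the Cy3 filter 19 of 55 (14.6%). When detected in all 24 readings it was 15 of 23 (38.1%). With 1 probe per gene it was 16 of 30 (25.8%), and with no background correction 19 (24.2%). Median centring gave 22 and turned the sign of 12 member probes, 4 of them called: Camk2a to −0.44, Ppp2r2c to −0.14, Ppp2r2b to −0.16, Mark4 to −0.36, Ppp3cb to −0.21, Ppp2ca to −0.26, Ppp3ca to −0.25, Akt1 to −0.35, Mapk14 to −0.19, Ppp2r2a to −0.09, Cdk5r2 to −0.04 and the dimmer Mark3 probe to −0.01; it scales each array by 1 number and leaves differences that vary with brightness, and the cause was not tested. Scan day as a block was not run, since each day holds 1 region and each slide 1 array. Signal over background limits Cy5: no probe of Gsk3a, Gsk3b, Cdk5, Mapk8, Mapk9, Fyn or Ppp2r1a was kept.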
